A study of Mus musculus with 6 samples.

Results

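The comparison described here is that of mature brown adipocytes differentiated from FGF8-pretreated preadipocytes with those differentiated from untreated preadipocytes, harvested 9 days after the pretreatment ended. It rests on 1 RNA sequencing library a side. Taken were all genes whose mean normalized count in this pair reached 20, namely 13070 of the 26264 gene symbols listed. All 6 libraries of the series came from cells of the stromal vascular fraction of brown fat (iBAT) of wild-type Bl6N mice, a mixed cell culture immortalized with the SV40 large T antigen, an oncoprotein. The preadipocytes received 5.5 nM FGF8 for 48 h or were left untreated (the study's methods call these controls vehicle-treated), and both were then differentiated with insulin, T3, IBMX, dexamethasone, indomethacin and rosiglitazone for 2 days and kept on differentiation medium for the 7 days by which the labels name this time point. FGF8 was given only before differentiation, so that the comparison asks what of its effect is present in the mature cells. The 4 other libraries hold the same 2 conditions at day 0, directly after the pretreatment, and at day 3. The growth protocol among the labels concerns primary white fat cells, in conflict with the titles, the tissue label and the study's methods, which were followed here.

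Brown adipocytes burn fatty acids in mitochondria whose inner membrane holds UCP1, which lets protons flow back without making ATP. They arise from fibroblast-like preadipocytes, which lay down collagen-rich matrix and can secrete chemokines and complement factors. Interferons act through JAK kinases and transcription factors on a large set of antiviral genes, many of which are also kept at a basal level without an added interferon. FGF8 is a paracrine ligand of FGF receptors, which signal mainly through ERK kinases and induce their own feedback inhibitors.

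The 6 libraries held between 16403254 and 38551551 counts, and of the day 9 pair the untreated one held 38551551 and the FGF8 one 34500934. Normalized counts are raw counts divided by median-of-ratios size factors over the 6 libraries. Log2 fold changes are FGF8 minus untreated on the scale of log2(normalized count + 1), and a gene was called higher or lower once this reached 2-fold. Intervals are 95% Clopper-Pearson intervals for the ratio between both counts and cover counting error only. With 1 culture and 1 library a side, no difference has a replicate check, no p-value is given, and a difference between cultures cannot be told apart from one made by FGF8. Defining markers of brown adipocytes were abundant in both libraries. Ucp1 had 91306 normalized counts without and 99587 after FGF8, Cidea, a lipid droplet protein of brown fat, had 23469.9 and 37734, and Adipoq, which encodes adiponectin, had 18265 and 22015. Their log2 fold changes were 0.13, 0.69 and 0.27, so that none of the 3 passed the 2-fold rule. Reads of near-identical gene copies can be split among them by the counting. This holds for the Serpina3, Saa, p200, Ifit, Oas, Gbp, Tgtp, MHC class I, Ly6 and histone genes, for Scd3 and for Acot2, whose single values are uncertain.

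Nearly all that differed in the mature cells was lower after FGF8. Of the 13070 genes, 1142 (8.74%) were called lower and 146 (1.12%) higher, and 10411 (79.7%) lay within 1.5-fold. In bulk RNA, fewer cells of a type and less RNA per cell cannot be told apart. The median log2 fold change over all genes was 0.083, with quartiles at -0.21 and 0.29. At 8-fold or more, 99 genes were lower and 1 was higher. The whole counting interval lay beyond 2-fold for 813 lower and 61 higher genes. Among genes with a mean of 100 or more, 6.5% were lower and 0.707% higher. The lower genes together took 8.89% of all counts of the untreated library and 2.59% of those of the FGF8 library, and the higher genes took 0.184% and 0.438%. The direction of both differences follows from the 2-fold rule. Lower genes were more frequent among scarce transcripts, with 21.9% of the genes at a mean of 20 to 100 normalized counts and 3.82% of those at 2000 or more. Just inside and just outside the lower threshold were Tdrp (-1.001) and Orm1 (-0.999), at the upper threshold Cystm1 (1.001) and Camk2b (0.998), and at the minimum mean Snora52 and Lin7b.

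**Figure D1:**
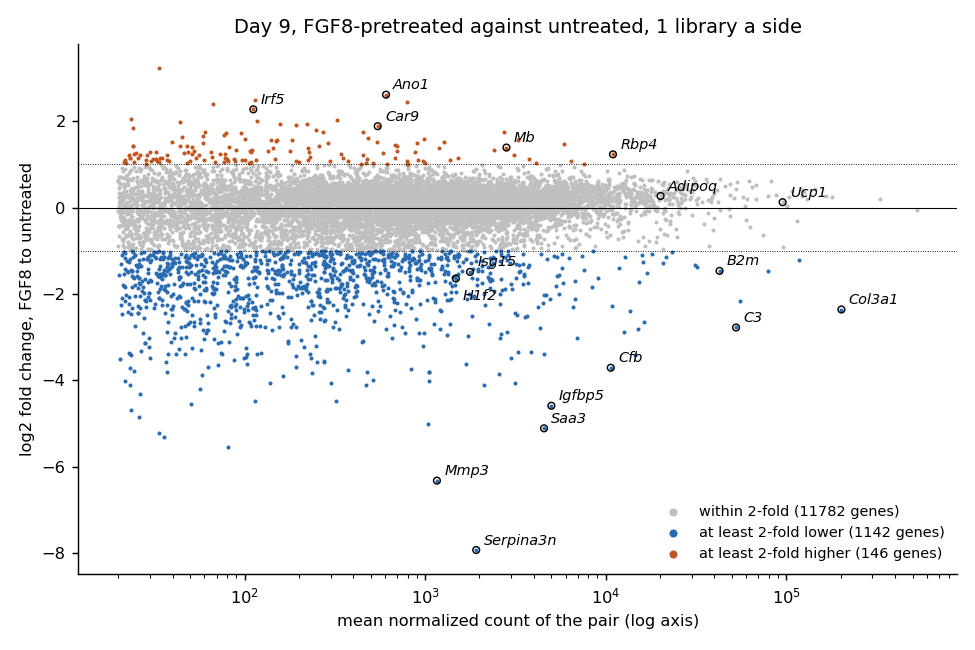
Each point is 1 of the 13070 genes, with the mean normalized count of the day 9 pair on a log axis and the log2 fold change of FGF8 to untreated on the vertical axis, where dotted lines mark 2-fold. The 1142 lower genes reach to a log2 fold change of -7.93 (Serpina3n), while Ucp1 and Adipoq lie close to 0 among the abundant genes.

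Acute-phase and complement genes held the largest decrease and the lowest median of the lists with 9 or more counted genes. Of 33 such genes with enough counts, 23 (69.7%) were lower and 0 higher, and the median of their log2 fold changes was -2.29. Serpina3n, a secreted inhibitor of serine proteases that rises in inflammation, lies at chr12:104372810-104380597 in GRCm39. It had 1108, 5443 and 3823 normalized counts at days 0, 3 and 9 without and 480.1, 597 and 14.6 after FGF8. It was thus lower at each day and nearly absent from the pretreated cells at day 9, at -7.93 (interval -8.79 to -7.37) on the log2 scale, the largest decrease among the 11171 genes averaging 100 or more normalized counts. Saa3, an acute-phase serum amyloid A at chr7:46361422-46365576, had 8854 normalized counts without and 254 after FGF8, which is -5.12 (interval -5.29 to -4.96) on the log2 scale. Both libraries of day 0 held almost no Saa3 (1.47 and 2.56 normalized counts).

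Complement is a cascade of secreted proteins that tags and lyses targets outside cells. C3, its central component, had 668, 123612 and 92029.6 normalized counts at days 0, 3 and 9 without and 48.6, 48136 and 13414 after FGF8. In both groups it was higher at days 3 and 9 than at day 0, and at day 9 it was 6.86-fold lower after FGF8. Cfb, the factor B protease of the alternative pathway, had 19818 normalized counts without and 1512 after FGF8 (-3.71), and C4b of the classical pathway had 28059 and 4441 (-2.66). The C1 proteases C1ra and C1s1 were lower too, with log2 fold changes of -2.80 and -2.29, and their inhibitor Serping1 was at -3.86. Lbp, which binds bacterial lipopolysaccharide, went from 8349.8 to 792 normalized counts. Haptoglobin (Hp, -1.65), pentraxin 3 (Ptx3, -2.07), lipocalin 2 (Lcn2, -1.84) and ceruloplasmin (Cp, -1.22) were lower as well. Lcn2 had been higher at day 0, with a log2 fold change of 2.48.

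Chemokine and cytokine transcripts were lower to a similar extent. Of 28 genes, 19 (67.9%) were lower and 0 higher, all 28 log2 fold changes were negative, and the median was -2.06. Cxcl12, which holds CXCR4-bearing cells in tissues, was by far the most abundant of them. It had 40599, 34530.3 and 26516 normalized counts at days 0, 3 and 9 without and 10351, 10387 and 3765 after FGF8, and its day 9 log2 fold change was -2.82 (interval -2.86 to -2.77). The FGF8 level was the lower one at each day. The interferon-induced T cell attractant Cxcl9 had 2130.2 normalized counts without and 299.98 after FGF8 (-2.82). Attractants of monocytes and eosinophils followed, with Ccl2 at -2.16, Ccl7 at -2.14, Ccl8 at -3.40, Ccl11 at -2.82 and Ccl5 at -2.07. Receptors were among the lower genes too. Osmr, the oncostatin M receptor, had 3535 normalized counts without and 739 after FGF8 (-2.26), its partner Il6st, shared by cytokines of the interleukin 6 family, was at -1.13, and the interleukin 1 receptor Il1r1 at -1.30.

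Il33, an alarmin that activates type 2 immunity, turned over between the days. It had 88.1, 389 and 617 normalized counts at days 0, 3 and 9 without and 6194, 47.7 and 26.8 after FGF8. The FGF8 library was the higher one at day 0 and the lower one at days 3 and 9, where the log2 fold change was -4.47 (interval -5.07 to -4.02). Il1rl1, which encodes its receptor, had 69.6 normalized counts without and 5.69 after FGF8 at day 9 (-3.40).

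Markers of immune and endothelial cells were nearly absent. Of 20 macrophage and immune cell genes, 5 had enough counts. Of these, 3 (60%) were lower and 1 (20%) higher, against 8.74% and 1.12% of all genes, with a median of -1.50. With a mean of at least 100 in the pair, 1 was lower and 0 higher. The summed level of all 20 was 731.1 normalized counts without and 227.6 after FGF8. The defining markers Adgre1, Ptprc and Aif1 had 0 reads in both. Mpeg1, a pore-forming protein of phagocytes, made up most of the untreated sum, with 440.1 normalized counts without and 30.1 after FGF8 (-3.83), whereas Cd68 was at 0.01 and Fcer1g was higher (1.08), a call lost with a pseudocount of 5. Of 12 endothelial genes 3 had enough counts, Tek and Flt1 being lower (-2.62 and -1.86) and Egfl7 at -0.01. Their sum was 471.3 against 219.5 normalized counts, with Emcn at 0 reads in both libraries. The part of such cells in the lower transcripts was not tested.

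Interferon-stimulated genes were lower as a group in cells to which no interferon was stated to have been added. Of 73 listed genes with enough counts, 44 (60.3%) were lower and 0 higher, 71 log2 fold changes were negative, and the median was -1.16. The remaining 2, Ifi27 and Helz2, were above 0 and within 2-fold. Several lower genes hold in their promoters a match to the sequence through which interferon signaling is known to act. The interferon-stimulated response element (ISRE) was searched as GAAA, any 2 bases and GAAA, the gamma-activated site (GAS) as TTCNNNGAA and the kappa B site as GGG, any 2 bases and TTTCC, each on both strands, in RefSeq windows from 250 bases before to 50 bases after each gene start (GRCm38.p6). The 250 bases before the start are shown for 4 lower interferon genes that hold an ISRE match, and for Serpina3n, the gene with the largest decrease, which holds none. Matches are in capitals.
Isg15 (chr4:156200819-156201068, minus strand): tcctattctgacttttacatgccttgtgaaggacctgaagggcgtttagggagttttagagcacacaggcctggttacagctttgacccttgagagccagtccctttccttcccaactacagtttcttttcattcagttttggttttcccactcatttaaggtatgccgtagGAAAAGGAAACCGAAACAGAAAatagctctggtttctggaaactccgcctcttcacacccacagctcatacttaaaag
Ifit3 (chr19:34583279-34583528, plus strand): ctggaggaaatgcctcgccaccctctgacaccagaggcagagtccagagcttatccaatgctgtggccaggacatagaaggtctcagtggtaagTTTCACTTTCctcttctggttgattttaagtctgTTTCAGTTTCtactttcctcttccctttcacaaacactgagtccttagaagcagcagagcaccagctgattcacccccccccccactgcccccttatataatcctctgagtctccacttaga
B2m (chr2:122147437-122147686, plus strand): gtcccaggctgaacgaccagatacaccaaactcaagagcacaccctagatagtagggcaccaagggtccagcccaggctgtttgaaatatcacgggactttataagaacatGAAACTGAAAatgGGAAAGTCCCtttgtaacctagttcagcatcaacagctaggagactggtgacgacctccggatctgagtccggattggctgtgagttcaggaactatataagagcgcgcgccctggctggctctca
Ifi205 (chr1:174031756-174032005, minus strand): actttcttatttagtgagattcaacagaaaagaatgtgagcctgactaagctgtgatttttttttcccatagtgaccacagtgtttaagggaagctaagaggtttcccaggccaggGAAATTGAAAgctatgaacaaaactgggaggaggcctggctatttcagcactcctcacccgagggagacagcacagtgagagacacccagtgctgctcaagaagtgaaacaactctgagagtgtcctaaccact
Serpina3n (chr12:104406458-104406707, plus strand): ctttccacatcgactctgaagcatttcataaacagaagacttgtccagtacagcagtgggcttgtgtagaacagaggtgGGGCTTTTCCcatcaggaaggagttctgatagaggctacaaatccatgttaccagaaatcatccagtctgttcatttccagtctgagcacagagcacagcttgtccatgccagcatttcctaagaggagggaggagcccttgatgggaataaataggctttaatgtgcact

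In the Isg15 window, 3 overlapping ISRE matches lie between 78 and 57 bases before the start. Ifit3 holds 2 matches on the opposite strand, starting 156 and 122 bases before it. B2m holds an ISRE match 139 bases and a kappa B match 126 bases before the start. Ifi205 holds an ISRE match 134 bases before it and a second one 23 bases after it, outside the bases shown. The capitals of Serpina3n are a kappa B match. Over the lower members of the interferon list, 24 of 36 windows (66.7%) held an ISRE, and over those within 2-fold 11 of 32 (34.4%). Of the windows of all counted genes 3.09% held it, as did 3.44% of all 32851 windows of the table, which covered 10383 of the 13070 genes by symbol. The lower genes outside the interferon-stimulated, p200 and antigen presentation lists held it in 4.81% of 1018 windows, and the higher genes in 2 of 139. No ISRE was found in the 16 windows of lower chemokine and cytokine genes or the 9 of lower collagen genes. At a share of 3.09%, so few windows would often hold none. The other lower matrix genes held it in 4 of 34 windows (11.8%). GAS matches were in 8.38% of the windows of all lower genes against 6.78% of those of all counted genes, and kappa B matches in 2.61% against 1.7%. A kappa B match was in 3 of 15 windows of lower complement and acute-phase genes and 2 of 10 of lower antigen presentation genes. It was in 2 of 16 of lower chemokine and cytokine genes and 1 of 36 of the lower interferon list. None was in the lower p200, collagen or other matrix windows. A match describes letters of a window and shows no binding.

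Isg15, a ubiquitin-like antiviral modifier at chr4:156283883-156285303 in GRCm39, had 12847, 3090.2 and 2614 normalized counts at days 0, 3 and 9 without and 2648, 1888 and 930.01 after FGF8. Of the untreated levels that of day 0 was highest, and the FGF8 level was the lower one at each day. At day 9 its log2 fold change was -1.49 (interval -1.59 to -1.40). Ifit3, which helps to bind foreign RNA, had 3387 normalized counts without and 849 after FGF8 (-1.995), and its relatives Ifit1, Ifit2 and Ifit3b were at -1.18, -1.44 and -1.82. Among sensors of foreign nucleic acids, Zbp1 had 2357 normalized counts without and 302 after FGF8, or -2.96 (interval -3.12 to -2.81) on the log2 scale. Oas3, which makes the activator of an RNA-degrading nuclease, had the lowest log2 fold change of the list, -3.56 (interval -4.03 to -3.18), followed in the same family by Oas2 (-2.22) and Oas1a (-1.87). The membrane protein Ifitm3, which blocks virus entry, went from 10405 to 3184 normalized counts (-1.71), and tetherin (Bst2) from 5407 to 2154 (-1.33). The antiviral GTPases Mx1 (-2.38), Gbp10 (-2.93), Tgtp2 (-2.76) and Igtp (-1.39) were lower too. Usp18, which removes ISG15 and dampens interferon receptors, was just past the rule at -1.01, but not when scaled by TMM.

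All 9 counted genes of the p200 family, which encode DNA-binding proteins induced by interferon, were lower, with a median of -2.15. Of their windows, 9 of 10 held an ISRE. Ifi205, whose promoter is printed above, had 2008, 3269.6 and 890.1 normalized counts at days 0, 3 and 9 without and 151, 693 and 50.4 after FGF8, and a day 9 log2 fold change of -4.12 (interval -4.53 to -3.77). The other 8 members were between -3.48 (Ifi213) and -1.71 (Mndal).

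The machinery that carries the interferon signal differed less than its targets. Of 29 pathway and sensor genes, 7 (24.1%) were lower and 1 higher, with a median of -0.43. Most still lay below 0, with 25 negative log2 fold changes, 21 of them with the whole interval below 0. The receptor chain Ifnar1 was at -0.13, the kinase Tyk2 at -0.12 and the transcription factors Irf1 and Irf3 at -0.07 and 0.12. The other receptor chain, Ifnar2, was lower (-1.08), and Stat2 lay just within 2-fold (-0.97) and past it when scaled by total counts or within the pair. Irf7, the factor that amplifies type I interferon and is itself interferon-induced, had 10538, 5891 and 8818 normalized counts at days 0, 3 and 9 without and 1612, 2399 and 2188 after FGF8. Its FGF8 level was lower at each day, and at day 9 the log2 fold change was -2.01 (interval -2.07 to -1.95). The DNA-sensing adaptor Sting1 (-1.95), the bacterial lipoprotein receptor Tlr2 (-2.54) and the cytokine signaling suppressors Socs1 and Socs3 (-1.29 and -1.60) were lower. Stat3 was the remaining lower gene, though not when scaled by TMM. Irf5 went the other way. It had 444, 129.8 and 37.6 normalized counts at days 0, 3 and 9 without and 143, 47 and 186 after FGF8, lower after FGF8 at days 0 and 3 and 4.85-fold higher at day 9.

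Antigen presentation genes were lower in part, those of the class I complex itself included. Of 21 such genes, 10 (47.6%) were lower and 0 higher, 19 log2 fold changes were negative, and the median was -0.85. B2m, the light chain of all class I molecules, had 60107, 58298 and 62714 normalized counts at days 0, 3 and 9 without and 20989, 22369 and 22683 after FGF8. The FGF8 level was the lower one at each day, and at day 9 the log2 fold change was -1.47 (interval -1.49 to -1.45). The heavy chains H2-K1 (-1.32) and H2-D1 (-1.15) and the non-classical H2-T23 (-1.88) and H2-Q4 (-1.40) were lower, as was the immunoproteasome subunit Psmb8 (-1.20).

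The extracellular matrix accounted for the most abundant of the lower transcripts. Of 26 collagen genes 12 (46.2%) were lower and 0 higher, of 61 other matrix genes 42 (68.9%) and 0, and of 27 proteases and inhibitors 18 (66.7%) and 0. The medians were -0.88, -1.58 and -1.75. Col3a1, a fibrillar collagen at chr1:45350698-45395840, was among the 5 genes with the highest mean counts of the pair. It had 129678, 326050 and 338093 normalized counts at days 0, 3 and 9 without and 70729.6, 100357 and 65789 after FGF8, and the untreated level was the higher one at each day (-2.36 at day 9). The chains of type I collagen, Col1a1 and Col1a2, were at -1.22 and -1.47, and of type V collagen Col5a1 at -1.53 and Col5a2 at -1.29. Of basement membrane collagens, Col4a1 was at -0.23 and Col15a1 at -0.17, and Col27a1 lay close below the upper threshold (0.88).

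Fibronectin (Fn1), which links cells to collagen, had 122503, 83538 and 90882 normalized counts at days 0, 3 and 9 without and 201673, 21691 and 20179.8 after FGF8. It was higher after FGF8 at day 0 and lower at both later days, with a day 9 log2 fold change of -2.17 (interval -2.19 to -2.15). The small proteoglycan decorin (Dcn) showed the same order, with 25737, 10242 and 26683 normalized counts at days 0, 3 and 9 without and 46078, 2866 and 2511 after FGF8 (-3.41 at day 9). Its relative lumican (Lum) was at -3.80, dermatopontin (Dpt) at -2.88, fibulin 2 (Fbln2) at -2.40, elastin (Eln) at -1.69 and periostin (Postn) at -1.38. Among proteases, Mmp3, which cleaves proteoglycans and activates other proteases, had 2298 normalized counts without and 27.6 after FGF8, or -6.33 (interval -6.91 to -5.89) on the log2 scale. The gelatinase Mmp2 (-2.27), its membrane-bound activator Mmp14 (-1.75) and the aggrecanase Adamts5 (-2.54) were lower together with the inhibitors Timp1 (-3.35), Timp2 (-2.30) and Timp3 (-1.90).

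**Figure D2:**
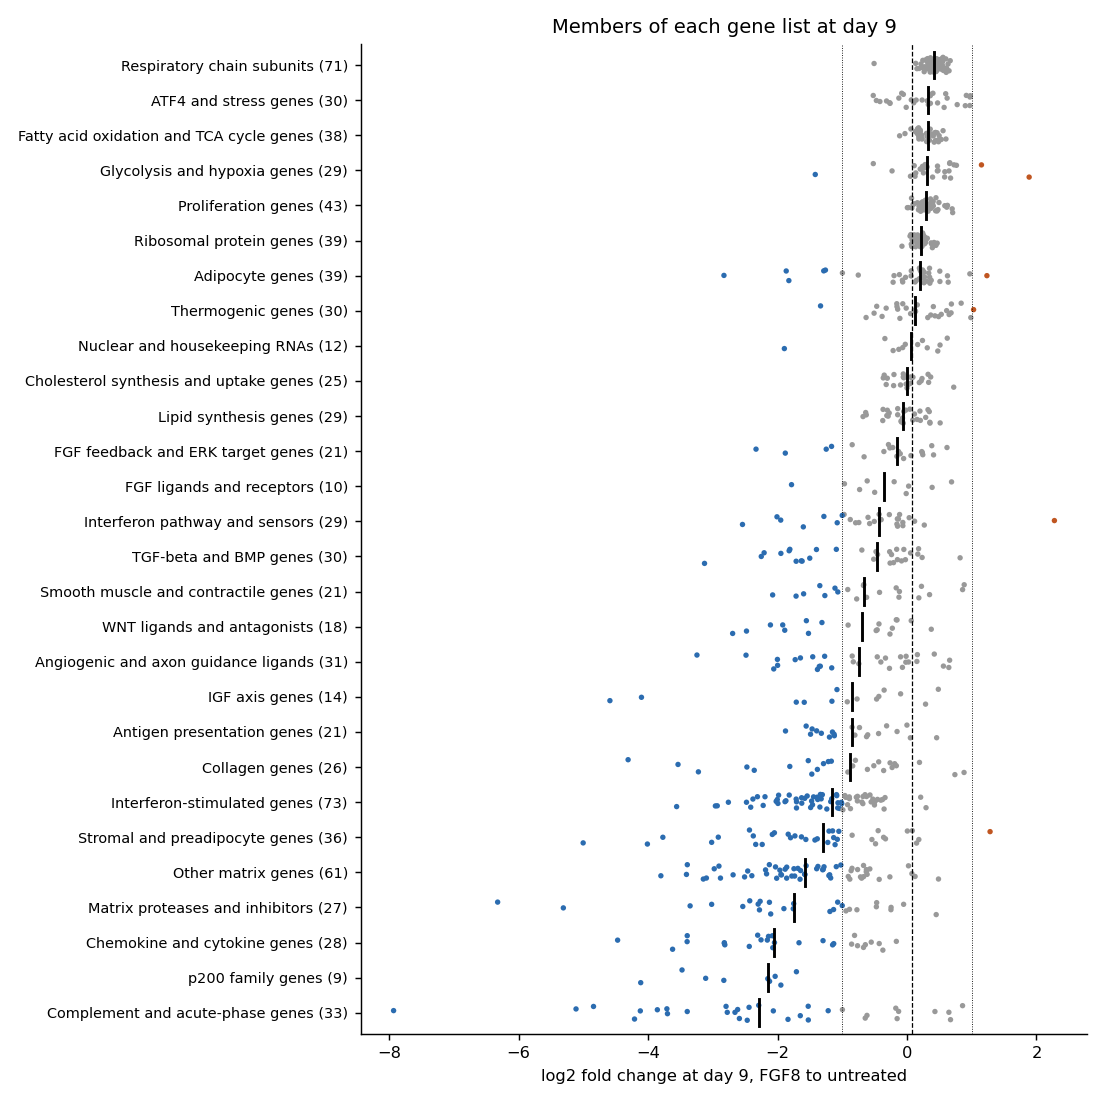
Each point is a gene of the named list with enough counts (their number in parentheses), placed by its log2 fold change at day 9, with a short black line at the median of the list, a dashed line at the median of all genes (0.083) and dotted lines at 2-fold. Immune, matrix and stromal lists extend to the left, with a median of -2.29 for complement and acute-phase genes, while respiratory, ribosomal and proliferation genes sit mostly in a narrow range to the right of 0. Blue points are called lower and orange points higher.

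Surface markers of preadipocytes and fibroblasts were lower in the mature FGF8-pretreated cells. Of 36 stromal and preadipocyte genes, 25 (69.4%) were lower and 1 higher, with a median of -1.31. Pdgfra, the receptor that marks adipocyte progenitors, had 68261, 20193 and 13042 normalized counts at days 0, 3 and 9 without and 9679.8, 5840.1 and 3651 after FGF8. In both groups it was lowest at day 9, where it was 3.57-fold lower after FGF8. Ly6a (Sca-1) went from 12335 to 1520.2 normalized counts (-3.02), Cd34 from 702 to 50.4 (-3.77), Thy1 from 1293 to 273 (-2.24) and the lectin Clec3b from 1983 to 122 (-4.01). Ly6c1, a glycolipid-anchored relative of Ly6a, had 2015 normalized counts without and 61.8 after FGF8 (-5.01). The preadipocyte factor Dlk1 was at -1.11. The summed level of all 42 listed genes was 451960, 250888 and 151747 normalized counts at days 0, 3 and 9 without and 232816, 113415 and 70863 after FGF8, and the part of these cells in the lower matrix, chemokine and complement transcripts was not tested. Nt5e, the ecto-enzyme CD73 that makes adenosine, was the higher gene (1.28). Ngfr, the low-affinity neurotrophin receptor listed with Schwann cell genes, was 8.16-fold lower, while S100b, Mbp and Ncam1 of that list were within 2-fold (-0.78, -0.55 and -0.50).

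Secreted regulators of growth factor signaling were lower in part. Of all genes 8.74% were lower and 1.12% higher, and at 1.12% most lists of this size would hold no higher gene. In the IGF axis 6 of 14 genes (42.9%) were lower and 0 higher. Igfbp5, which binds IGFs outside cells, had 3027, 24040.5 and 9608 normalized counts at days 0, 3 and 9 without and 513, 3191 and 398 after FGF8, and a day 9 log2 fold change of -4.59 (interval -4.73 to -4.46). Igfbp6 was at -4.10, Igfbp3 at -1.71 and Igf1 itself at -1.08. Of 18 WNT ligands, receptors and antagonists 8 (44.4%) were lower and 0 higher. The secreted antagonists Sfrp1 (-2.70), Sfrp2 (-2.11) and Sfrp4 (-1.92) and the WNT-enhancing Rspo2 (-2.48) were among them. The ligand Wnt16, not in the list but among the 15 largest decreases, had 308 normalized counts without and 19.5 after FGF8 (-3.91). Of 30 TGF-beta and BMP genes 12 (40%) were lower and 0 higher, including the ligand Tgfb2 (-3.13), the activin antagonist Fst (-1.95) and the receptor Tgfbr2 (-1.09).

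The feedback genes of FGF signaling were no longer higher 9 days after FGF8. Of 21 such genes, 4 were lower and 0 higher, with a median of -0.16 against 1.19 at day 0. Spry4, an inhibitor of receptor tyrosine kinase signaling, had 60.2, 840.00 and 657 normalized counts at days 0, 3 and 9 without and 1060.02, 1192 and 685 after FGF8. It was thus 4.12 log2 units higher at day 0 and at 0.06 at day 9. Dusp6, an ERK phosphatase, went from 3.91 at day 0 to -0.85 at day 9. The growth factor response gene Egr1 was lower at day 9, with 1398 normalized counts without and 276 after FGF8 (-2.33). Of 10 counted FGF ligands and receptors 1 (10%) was lower, namely Fgf7 (-1.79), and the other 9 were within 2-fold. Fgf10 (-0.97) passed the rule when scaled by total counts or within the pair. The FGF8 receptor Fgfr1 was at -0.50.

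Adipocyte genes were mostly within 2-fold, with some exceptions. Of 39 listed genes 5 (12.8%) were lower and 1 (2.56%) higher, against 8.74% and 1.12% of all genes, with a median of 0.20. The master regulator Pparg was at 0.35, the fatty acid binding protein Fabp4 at 0.19, the glucose transporter Slc2a4 at 0.51 and the droplet protein Plin4 at 0.64. Leptin (Lep), the satiety hormone made mainly by white fat, had 0, 12.7 and 104 normalized counts at days 0, 3 and 9 without and 0, 9.13 and 13.8 after FGF8. It was scarce after FGF8 at day 9 (-2.83). Adipsin (Cfd, -1.83), the transcription factors Cebpd (-1.87) and Klf15 (-1.29) and Sncg (-1.26) were the other lower genes. Rbp4, the carrier of retinol, had 49.9, 477 and 6548 normalized counts at days 0, 3 and 9 without and 80.7, 1029 and 15402 after FGF8, and was higher after FGF8 at each day (1.23 at day 9).

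Of 30 thermogenic genes, 1 (3.33%) was lower and 1 (3.33%) higher, against 8.74% and 1.12% of all genes. The median was 0.13 against 0.93 at day 3. The lower gene was the transcription factor Lhx8 (-1.34). The higher one was the mitochondrial thioesterase Acot2 (1.03), within 2-fold when scaled by total counts or within the pair. Ppargc1a, the coactivator of mitochondrial biogenesis, was at 0.43, its relative Ppargc1b at 0.65, the determination factor Prdm16 at 0.37 and Ebf2 at 0.68. Other members were below 0 and within 2-fold, such as the deiodinase Dio2 (-0.47), the fatty acid elongase Elovl3 (-0.39) and Irf4 (-0.63). The receptors for noradrenaline Adrb1 and Adrb3 were at 0.84 and -0.11. None of 29 lipid synthesis genes and none of 25 cholesterol genes passed the rule in either direction, with medians of -0.06 and 0.00. Fasn, the fatty acid synthase, was at -0.63, and Scd1, the desaturase with the highest mean count of the pair, at -0.06.

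Mitochondrial genes lay slightly above 0 in concert. Of 71 respiratory chain subunits none passed the 2-fold rule, 70 were positive and the median log2 fold change was 0.42. The exception was Cox8b, a muscle and brown fat isoform of cytochrome oxidase (-0.51). Values reached 0.67 for Uqcrb of complex III. Of 38 genes of fatty acid oxidation and the TCA cycle 36 were positive (35 when scaled within the pair), with a median of 0.32 and Idh3a at the top (0.60). Ribosomal protein genes had a median of 0.22, and the upper quartile of all genes was 0.29. The median of all genes was 0.083. It was -0.14 at a mean of 20 to 100 normalized counts and 0.15 at 2000 or more. The lists of this paragraph were not matched for abundance. All 43 proliferation genes were within 2-fold (median 0.29) and positive, though 41 were so when scaled by total counts or within the pair. Of 30 ATF4 and stress genes none passed the rule, but the serine and folate enzymes Shmt2 (0.98), Phgdh (0.92) and Mthfd2 (0.90) and the pseudokinase Trib3 (0.97) came close to it, and Shmt2, Trib3 and Chac1 (0.97) passed it when scaled by TMM.

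The 146 higher genes formed no single group of the lists. The calcium-activated chloride channel Ano1, at chr7:144142278-144305711, had 7.34, 1.27 and 169.7 normalized counts at days 0, 3 and 9 without and 37.1, 7.02 and 1045 after FGF8. It had the largest increase of the genes averaging 100 or more, at 2.62 (interval 2.42 to 2.83) on the log2 scale. The next were Shisal2a with 34.1 normalized counts without and 196 after FGF8 (2.49), the semaphorin Sema4g with 246 normalized counts without and 1351 after FGF8 (2.45) and Irf5, described above. Aire, best known as a regulator of self-antigens in the thymus, had 127 normalized counts without and 524 after FGF8 (2.04). The receptor tyrosine kinase Kit had 90.9 normalized counts without and 352 after FGF8 (1.94), and the actin-binding proteins Coro6 and Parvb were at 1.76 and 1.61. Pigr, which carries immunoglobulins across epithelia (2.00), the adhesion molecules L1cam (1.93) and Flrt1 (1.92), Cdsn (1.76) and the noncoding 4933433H22Rik (1.80) completed the 15 largest increases together with 2 carbonic anhydrases. The latter were Car9, a membrane enzyme induced by low oxygen, with 232 normalized counts without and 861 after FGF8 (1.89), and the secreted Car6 (1.76). Of 29 glycolysis and hypoxia genes 2 (6.90%) were higher, Car9 and Aldoc (1.15), and 1 (3.45%) lower. Of all genes 1.12% were higher and 8.74% lower. The lower gene was Adm, which encodes adrenomedullin (-1.42), and the median of the list was 0.31.

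Of 15 skeletal muscle genes 4 had enough counts, of which 1 (25%) was higher and 0 lower, against 1.12% and 8.74% of all genes. Tnnc1 at 0.78, Acta1 at 0.34 and Actn3 at -0.84 were within 2-fold. The higher one was myoglobin (Mb), the oxygen-binding protein of muscle that brown fat also makes. It had 8.81, 3.82 and 1557 normalized counts at days 0, 3 and 9 without and 0, 69.5 and 4084 after FGF8 (1.39 at day 9). It became abundant only at day 9 and was 2.62-fold higher there. The muscle-defining factors Myod1, Myf5 and Myf6 had 0 reads in both libraries. A further 7 higher genes were picked after their values were seen and because they were higher, so that they say nothing of brown fat genes in general. Of these, Ybx2 and Tbx1, known from brown fat, were at 1.33 and 1.56, the long noncoding RNA Lncbate10, named for brown fat, at 1.55, and Reep1 at 1.52. The lipid enzyme Scd3 was at 1.57, Soat2 was 2.83-fold higher, and the hormone Adm2 at 1.42.

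**Figure D3:**
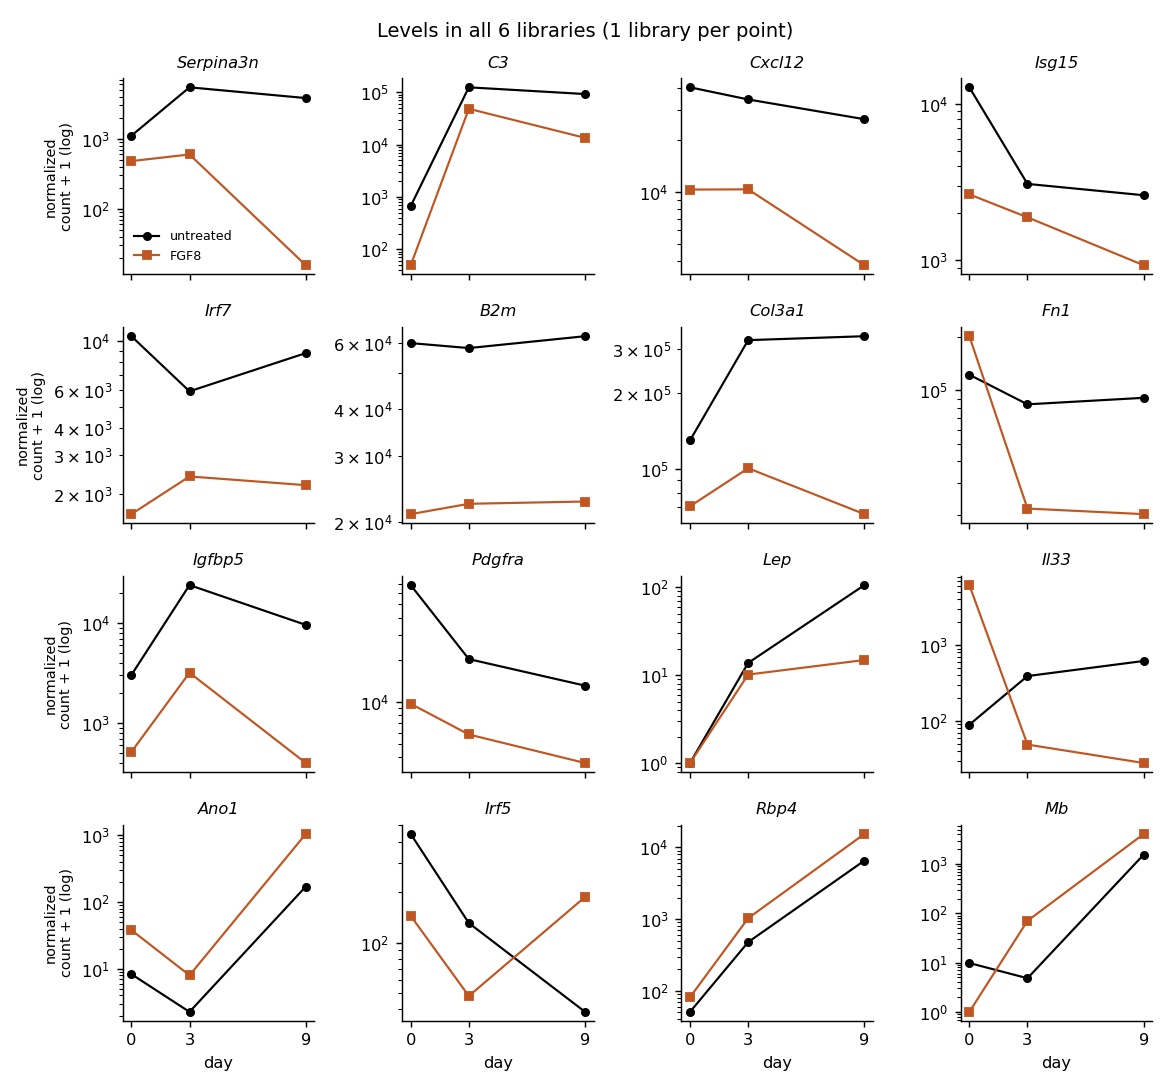
Each panel shows 1 gene, with the day after pretreatment on the horizontal axis, the normalized count plus 1 on a log axis, and 1 library per point (black circles untreated, orange squares FGF8). Il33 and Fn1 start higher in the FGF8 library and end lower, Irf5 starts lower and ends higher, and B2m stays lower after FGF8 throughout, with 62714 and 22683 normalized counts at day 9.

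A further set of lower genes was found in histone genes, which were chosen after their values were seen. Histones made for DNA replication come from clustered genes whose transcripts normally end in a stem-loop in place of a poly(A) tail. Of the 62 genes of these clusters listed, 24 had enough counts, of which 22 were lower and 0 higher, at a median of -1.90 (log2). H1f2, a linker histone, had 41.1, 1708 and 2243 normalized counts at days 0, 3 and 9 without and 39.7, 1154 and 717 after FGF8. H2bc4 had 2337 normalized counts without and 1027 after FGF8 (-1.19), and H4c8 had 188 normalized counts without and 16.3 after FGF8 (-3.45). The summed level of the 62 genes was 221.8, 6726 and 7662 normalized counts at days 0, 3 and 9 without and 176.7, 5567 and 2910 after FGF8. The difference was thus largest at day 9 and the transcripts were nearly absent at day 0. Over the same libraries none of the 43 proliferation genes was lower at day 9, and histones made outside replication were at 0.13 (H3f3a), 0.25 (H2az1) and 0.08 (H1f0). The library kit selects messenger RNA, so that the reads measure the polyadenylated part of these transcripts, and whether the transcripts or their tails differed was not tested. Most of the 24 genes had few reads, with medians of 111 without and 26.5 after FGF8.

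**Figure D4:**
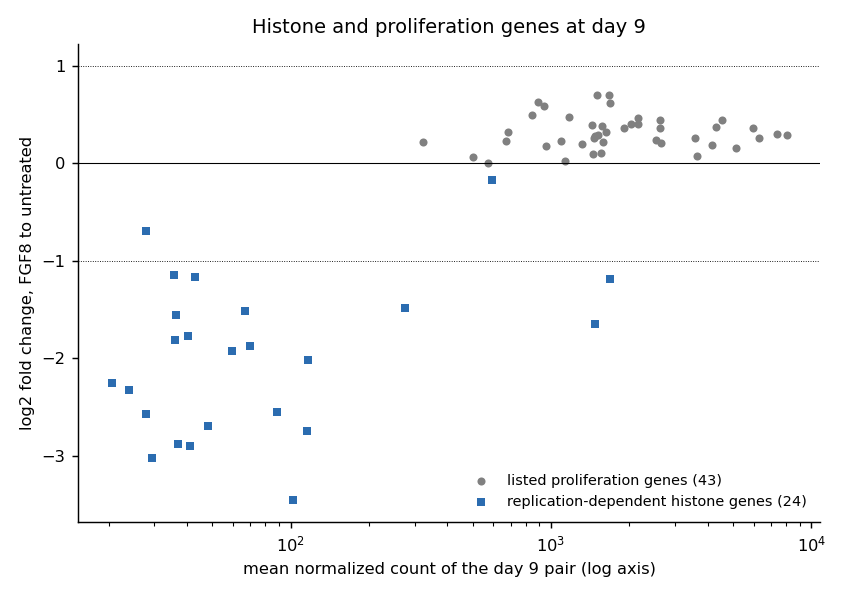
Points show the mean normalized count of the day 9 pair on a log axis against the log2 fold change, for 24 histone genes of the replication clusters (blue squares) and 43 proliferation genes (grey circles). All 43 proliferation genes lie above 0 (41 when scaled by total counts or within the pair), and 22 of the histone genes lie at or below -1.

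Lower genes often lay next to each other. Of 1122 lower genes with a position in the GENCODE M39 annotation, 365 (32.5%) had another lower gene within 100 kb, against 2368 of 11564 other genes (20.5%). Runs were chained from genes already called lower, with gaps of at most 100 kb and at least 4 lower genes. They begin and end at lower genes, so that a high share of lower genes within them follows from how they were built. The run with the most lower genes, at chr13:23715220-23948389, was that of the histones, with 14 of 16 counted genes lower. The p200 genes on chromosome 1 gave 9 of 9, the run of the Ifit genes on chromosome 19 gave 6 of 7, and the Oas genes on chromosome 5 gave 5 of 6. On chromosome 12 all 5 counted genes at chr12:104110471-104380597 were Serpina3 paralogs and lower, with a median of -4.21. On chromosome 1 the receptors Il1r2, Il1r1, Il1rl2 and Il1rl1 were all lower, and on chromosome 16 the liver-type secreted proteins Ahsg (-3.82), Fetub (-1.75), Kng2 (-1.42) and Kng1 (-3.04). Most of these runs are families of related sequence, among which reads can be split. No whole chromosome stood apart, with medians between 0.071 below and 0.079 above that of all genes on the autosomes and the X chromosome.

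Most of the lower genes of day 9 had been lower before. Of the 1142 genes, 886 (77.6%) were also lower at day 3 and 552 (48.3%) at day 0 by the 2-fold rule, against 11.5% and 11.1% of all 13070 genes. No minimum mean at day 3 or 0 was asked of these genes or of the 146 higher ones. Of the 1142 genes, 456 were lower at both earlier days and 128 had been within 2-fold at both. Another 53 had been higher at day 0 and lower at day 3, as Il33 was. Of the 146 higher genes 48 (32.9%) were higher at day 3 and 60 (41.1%) at day 0, against 4.42% and 7.17% of all genes, and 50 had been within 2-fold at both. Over the genes counted at those days themselves, 12.1% were lower and 3.8% higher at day 3, and 10.8% were lower and 7.27% higher at day 0. The pairs of the 3 days share no library. Across genes, the log2 fold changes of day 9 had a Spearman correlation of 0.66 with those of day 3 (12619 genes) and of 0.38 with those of day 0 (11922 genes), as a description over genes that are not independent.

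**Figure D5:**
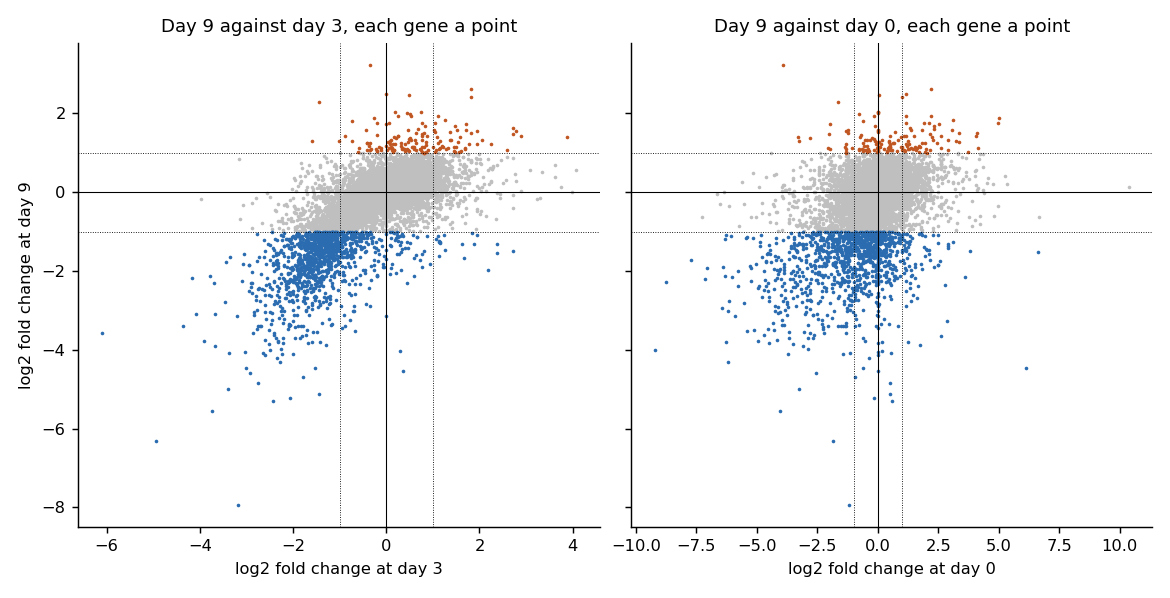
Each point is a gene counted at day 9, with its log2 fold change at day 9 on the vertical axis and that of day 3 (left) or day 0 (right) on the horizontal axis, and dotted lines at 2-fold. Genes lower at day 9 (blue) lie mostly in the lower left quadrant at day 3, 886 of 1142 of them past 2-fold, and spread over both sides at day 0.

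Lower genes were more frequent among those that untreated cells lost on the way to adipocytes. Of 310 counted genes that were at least 4-fold scarcer at day 3 than at day 0 in untreated cells, and averaged 100 or more over those libraries of days 0 and 3, 128 (41.3%) were lower after FGF8 at day 9, with a median of -0.76. Of 749 genes at least 4-fold more abundant at day 3, 101 (13.5%) were lower and 9 higher, with a median of 0.14. Of those within 2-fold over this step 5.37% were lower. These shares were not matched for abundance at day 9, and of all genes at a mean of 20 to 100 there 21.9% were lower. With a mean of at least 100 in the day 9 pair, 68 of the scarcer and 82 of the more abundant genes were lower. The counted genes of either kind at that mean were not numbered. These 2 counts thus give no shares and cannot be set against each other. The part of abundance in these shares was not tested. The median level of the 1142 lower genes was 514.8, 392.6 and 314.8 normalized counts at days 0, 3 and 9 without and 234.9, 130.9 and 89.4 after FGF8. Both series of medians descend over the days. That of FGF8 lies below at each, which at day 9 follows from how the genes were chosen.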

How the data were processed

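Bulk RNA was sequenced from 6 mouse cultures, 1 library per condition. Per the study's methods, the authors prepared poly(A) libraries with a stranded Illumina kit, trimmed paired reads with Trim Galore, aligned them to GRCm39 (mm39) with HISAT2 and counted them per gene with featureCounts. The deposited values are these raw counts. Versions, annotation, strand setting and the treatment of multi-mapping reads are not given in the sources used here. Groups were taken from the sample titles.

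Counts were divided by DESeq2 (1.42.0) median-of-ratios size factors over the 6 libraries. Genes whose normalized counts in the day 9 pair averaged 20 or more were kept, and fold changes used a pseudocount of 1. The day 9 pair alone allows no test. TMM factors came from edgeR (4.0.16). The fold step was tested on simulated data. Interval bounds are 95% Clopper-Pearson bounds from scipy (1.17.1), under Python 3.11.15 and R 4.3.3. Positions come from GENCODE M39, which placed 12686 (97.1%) of the genes, and promoters from RefSeq (GRCm38.p6). Genes named are members of the 33 lists, the 15 largest increases and decreases at a mean of at least 100, the 5 most abundant genes, and genes at the thresholds. Some genes of the lists are not reported here. Those said to be chosen after their values were seen are exceptions, as are Ahsg, Fetub, Kng1, Kng2 and the interleukin 1 receptor family, named after their values were seen. Alternatives were TMM, total counts, size factors within the pair, pseudocounts of 0.5 and 5, a minimum of 100, no minimum, 1.5-fold and 4-fold rules, and the interval beyond 2-fold. The members and lists were chosen with earlier results of these data known.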

Additional observations from a re-analysis of the deposited data

Results flagged for a closer look

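For 2 of the genes named for their size of change, the FGF8 and untreated libraries differed at least 2-fold in opposite directions at days 0 and 9. On the log2 scale Il33 stood at 6.12 at day 0 and at -4.47 at day 9. Irf5 was at -1.62 at day 0 and at 2.28 at day 9. With 1 library per condition, the difference between days was not tested.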

How the results depend on the processing

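The counts of lower and higher genes were 1103 and 165 with TMM, 1175 and 134 with total counts, 1245 and 127 with size factors within the pair, 1144 and 147 with a pseudocount of 0.5 and 1094 and 123 with one of 5. They were 726 and 79 with a mean of at least 100, 2585 and 623 without a minimum mean, 1881 and 778 at 1.5-fold, 354 and 9 at 4-fold, and 813 and 61 with the interval wholly beyond 2-fold. The share of lower genes among those called was 88.7%, and between 80.6% and 97.5% under these alternatives except for the 1.5-fold rule (70.7%). With a mean of at least 100 in the day 9 pair, 68 genes scarcer at day 3 than at day 0 were lower against 128, and 4 smooth muscle and contractile genes against 7, since fewer genes were counted. The median over all genes was 0.083, and 0.116, 0.049 and 0.018 with TMM, total counts and size factors within the pair. The other list counts of at least 5 lower genes and the counts carried over from days 0 and 3 stayed within 1.5 times of their values under the 6 alternatives run for them. For 35 genes chosen by size of change or abundance, 195 of 210 alternative log2 fold changes lay inside the counting interval, the other 15 were of the 5 most abundant genes under another scaling, and none changed direction. No paired analysis was possible because the day 9 comparison has 1 library a side. A fit of treatment with day as a block over the 6 libraries would estimate a mean over the days and was not run here. At 1 library a side, depth limits only genes with few counts, and the variation between cultures is unknown for all of them.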

Other observations

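Ligands that guide vessels and nerves were lower in part. Of 31 counted genes 13 (41.9%) were lower and 0 higher, at a median of -0.74 (log2). Negative log2 fold changes numbered 24 and positive ones 7. The repellents Slit3, with 5461 normalized counts without and 972 after FGF8 (-2.49), and Slit2 (-1.34), the semaphorins Sema3d (-3.25) and Sema3e (-1.38), the neurotrophin Bdnf (-1.73) and the lymphatic growth factor Vegfd (-2.003) were lower. Vegfa, the main angiogenic factor, had 27908 normalized counts without and 44032 after FGF8 (0.66). The summed level of the list, Vegfa included, was 68000 normalized counts without and 71874 after FGF8. Of 21 smooth muscle and contractile genes 7 (33.3%) were lower and 0 higher, against 8.74% and 1.12% of all genes. Among the lower were Myh11 (-1.60) and Itga8 (-2.08), whereas Des, an intermediate filament protein, was at 0.86.

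Long noncoding RNAs made up a larger share of the higher than of the lower genes. Of 502 counted, 22 (4.38%) were higher and 30 (5.98%) lower, against 0.960% and 9.03% of 12080 protein-coding genes. The 2 kinds were not matched for abundance. Of all genes at a mean of 20 to 100, 3.53% were higher and 21.9% lower. The imprinted Meg3 was lower (-1.90), while the nuclear Malat1 and Neat1 were at -0.13 and 0.62.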
